A study of Saccharomyces cerevisiae with 9 samples.

Results

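The small subunit processome is the large nucleolar particle in which the precursor of 18S ribosomal RNA is folded, modified and cut. The 35 genes described here encode its UTP proteins, the proteins of the U3 small nucleolar ribonucleoprotein (snoRNP) and early assembly factors of the small ribosomal subunit. They were taken from a list of open reading frames by function. The rule used no measured value, but the list was drawn up with earlier results of these data known. All 35 were found among the 5667 genes tested. Each was read by a single probe set.

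All cultures came from BY4741-background budding yeast, a haploid laboratory strain of mating type a. They grew at 30 °C in the rich medium YPD and were sampled on day 5. The CR cultures had 0.5% glucose, the RM cultures had 2% glucose with 100 nM rapamycin, a drug that slows growth, and the NR cultures had 2% glucose and no drug. Each group had 3 biological replicates, with 1 Affymetrix Yeast 2.0 array per replicate. Of 4 genes that BY4741 lacks in whole or in part, LEU2, MET17 and URA3 lay between 0.71 and 2.01 on the log2 scale on all 9 arrays, while HIS3 lay between 5.38 and 6.83.

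In growing yeast, glucose and nitrogen signals keep genes of ribosome assembly expressed together, and their transcripts are known to fall when cells starve or receive rapamycin. The processome forms on the nascent precursor in steps. The UtpA subcomplex binds the leading end of the precursor, UtpB and the U3 snoRNP follow, and the U3 RNA then pairs with the precursor with help from the Mpp10 complex. Enzymes and further factors complete the particle and later take it apart.

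Values are log2 signals per array. A gene is called changed where it differed at least 2-fold with a Benjamini-Hochberg adjusted p under 0.05 in limma, over all 5667 genes, and intervals are 95% intervals from the same fit. Arrays of whole cultures cannot tell fewer cells with a transcript from less of it per cell.

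The arrays differed in how closely they repeated. Over all genes the pooled within-group SD was 0.10 for CR, 0.23 for RM and 0.43 for NR on the log2 scale. NR replicate 3 was the array farthest from its group, with correlations over all genes of 0.928 and 0.948 to the other NR arrays, and RM replicate 2 was the farthest in RM. Of 4 markers of mating type alpha, the pheromone gene MF(ALPHA)1 read 6.62 on NR replicate 3 and 2.32 to 3.78 on the other 8 arrays. Within NR, STE3 was also highest on NR replicate 3, at 5.61 against 5.12 and 4.63. MF(ALPHA)2 read 3.73 on NR replicate 3, below the other NR arrays at 4.42 and 4.12, and SAG1 was likewise lowest there, at 6.69 against 6.86 and 6.76. In CR over NR, 1 of these 4 was called lower, MF(ALPHA)1, and 1 higher, STE3, by 3.22-fold. The CR values of MF(ALPHA)1 lay near those of LEU2, so no fold is given for it. In RM over NR, 0 of the 4 were called lower and 1 higher, SAG1, by 2.33-fold. In CR over RM, 0 were called lower and 1 higher, again STE3. The 5 mating type a markers lay between 4.64 and 10.75, with NR replicate 3 highest in each. Of these 5, 3 were called lower and 0 higher in CR than in NR, beside 19.9% and 17.9% of all genes, and 4 lower and 0 higher in CR than in RM, beside 13.2% and 12.7%. The part of these differences in the results below was not tested, and counts are also given without these arrays.

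In the comparison of 0.5% with 2% glucose, 19 of the 35 genes fell under CR and 1 rose. Over all genes, 19.9% were called lower and 17.9% higher in the same comparison. The median of the 35 was a log2 fold change of -1.16, a factor of 2.23, beside 0.02 for all genes. The nucleolin-like protein NSR1 and the U3 snoRNP scaffold proteins NOP58 and NOP56 fell the most, by 8.53- to 10.2-fold, whereas IMP4 of the Mpp10 complex was higher. In 27 of 35 genes all CR arrays lay below all NR arrays, and in 2, IMP4 and BMS1, all lay above; the same held for 36.9% and 38.6% of all genes. With no fold limit, 25 of the 35 were lower and 2 higher at a limma adjusted p under 0.05, beside 33.6% and 35.3% of all genes.

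**Figure D1:**
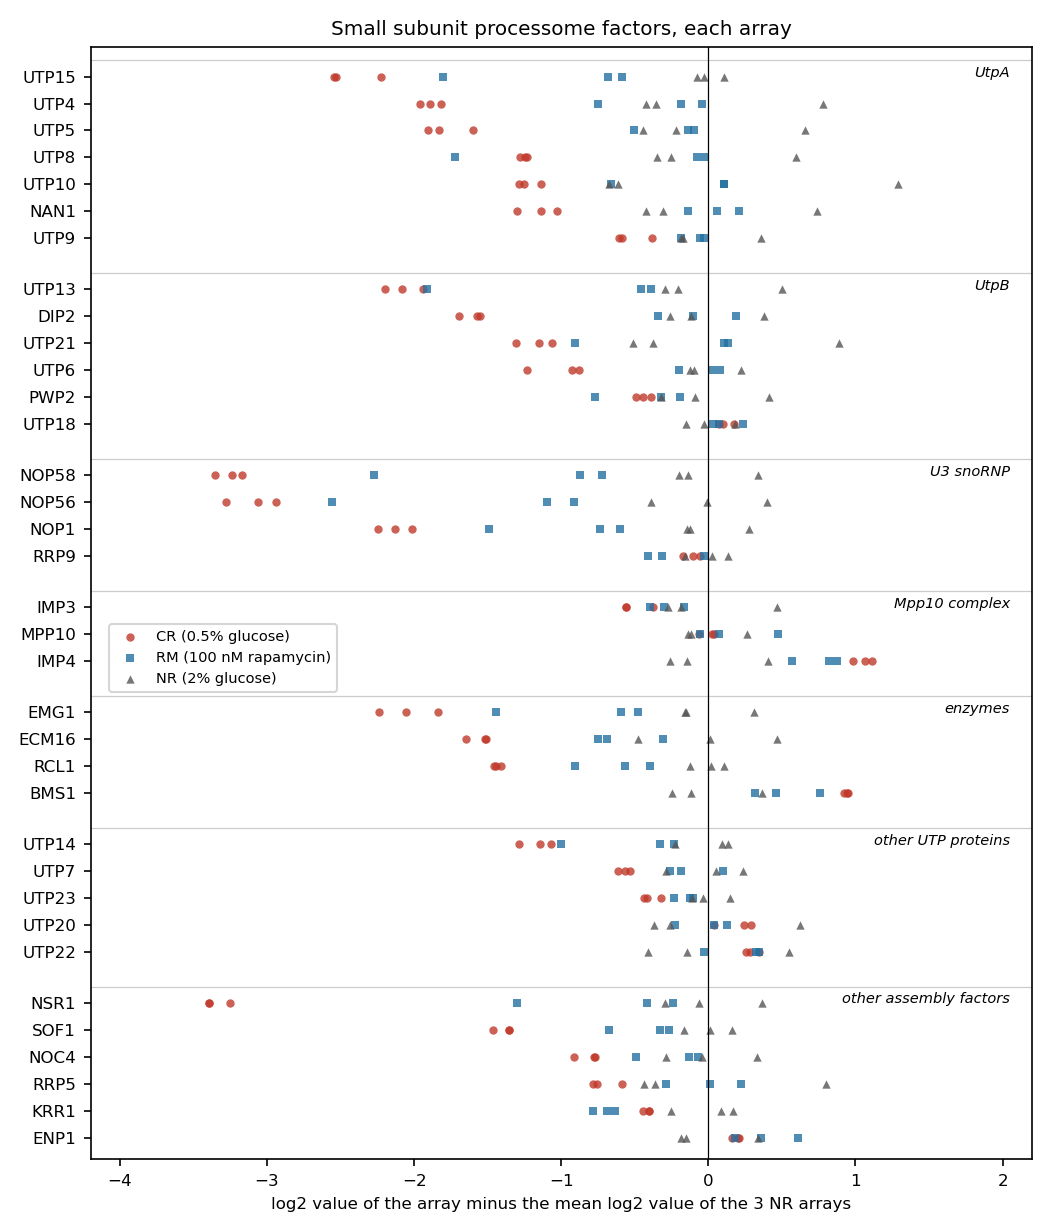
Each row is a gene, grouped by role, and each point is an array, drawn as its log2 value minus the mean of the 3 NR arrays. CR points lie closely together and to the left of 0 for most genes, but to the right for IMP4 and BMS1, and RM replicate 2 accounts for the RM point far left of the other RM points in NOP58, NOP56 and UTP13.

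The U3 snoRNP proteins divided into 3 core proteins that fell strongly under CR and 1 that did not. NOP1, NOP56 and NOP58 are shared by all box C/D snoRNPs, which guide ribose methylation of ribosomal RNA; RRP9 is found in the U3 particle alone. NOP58 (YOR310C), a scaffold protein of the box C/D core, read 5.29, 5.11 and 5.22 on the CR arrays, 7.59, 6.19 and 7.74 on the RM arrays and 8.26, 8.33 and 8.80 on the NR arrays. Every CR value lay below every RM value, and every RM value below every NR value. Its log2 fold change was -3.25 ± 0.36 (SE, n = 3 arrays per group) for CR over NR, a factor of 9.54, with an adjusted p of 4.22e-05 in limma.

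NOP56 (YLR197W), the partner scaffold, showed the same separation of the groups. It read 4.79, 4.66 and 4.44 in CR, 6.62, 5.16 and 6.81 in RM and 7.72, 7.33 and 8.12 in NR, and was 8.53-fold lower in CR than in NR (limma adjusted p = 9.69e-05). NOP1 (YDL014W), the fibrillarin methyltransferase, was 4.38-fold lower in CR than in NR, with values of 5.41 to 5.64 in CR and 7.51 to 7.93 in NR.

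RRP9 (YPR137W) gave 6.74, 6.86 and 6.81 in CR, 6.88, 6.51 and 6.60 in RM and 7.05, 6.94 and 6.76 in NR. The 3 groups overlapped, and the interval for CR over NR was -0.42 to 0.19 on the log2 scale, which leaves out a 2-fold change in either direction.

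UtpA, which is also tied to transcription of ribosomal DNA, had 6 of its 7 genes lower under CR than under NR and 0 higher. The median log2 fold change of the group was -1.25. UTP15 (YMR093W) had the lowest log2 fold change of the group. Its values were 4.33, 4.03 and 4.02 in CR, 5.98, 4.76 and 5.88 in RM and 6.49, 6.53 and 6.67 in NR. The CR arrays lay below all RM arrays and these below all NR arrays, and CR was 5.41-fold lower than NR (limma adjusted p = 6.08e-05).

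UTP4 (YDR324C), the yeast relative of human cirhin, read 4.08, 4.16 and 4.01 in CR, 5.79, 5.23 and 5.93 in RM and 5.55, 5.62 and 6.76 in NR. RM and NR overlapped and CR lay below both, 3.71-fold lower than NR. UTP5 was 3.43-fold lower in CR than in NR, UTP8 2.38-fold, UTP10 2.34-fold and NAN1 2.23-fold, with limma adjusted p-values between 0.000254 and 0.0397. UTP9 (YHR196W) had the smallest change, with 6.72, 6.51 and 6.49 in CR, 7.07, 6.91 and 7.04 in RM and 7.45, 6.93 and 6.91 in NR; its CR arrays lay below its NR arrays, but the factor was 1.44.

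NR replicate 3 bore on several of these. UTP10, a very large HEAT-repeat protein, read 5.78 and 5.84 on the other NR arrays and 7.74 on NR replicate 3, beside 5.17 to 5.32 in CR. Without that array its log2 fold change for CR over NR was -0.58, with UTP8 at -0.95 and NAN1 at -0.79, and none of these 3 was called. Without it 15 of the 35 genes fell and 0 rose, beside 1047 lower and 890 higher of all 5667 genes in limma, and the median of the 35 was -0.73. IMP4 and UTP21 also lost their calls, at 0.92 and -0.73 on the log2 scale.

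Calls near a limit moved with other single arrays too. UTP10 was not called without any 1 CR array or without RM replicate 1 or 3, with limma adjusted p-values of 0.0534 to 0.0894, and UTP8 was not called without any 1 CR array, at 0.0571 to 0.0608. UTP21 lost its call without CR replicate 3 (limma adjusted p = 0.0614), and UTP6 without CR replicate 2 or NR replicate 1, at -0.90 on the log2 scale in each. By the p-values of the authors' deposited table, UTP8, UTP10 and UTP21 did not pass either, at 0.113, 0.157 and 0.0976. With quantile normalization repeated, 14 of the 35 were lower and 0 higher, and NAN1, UTP6, UTP8, UTP10 and UTP21 were not called.

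UtpB, a set of mostly WD-repeat proteins that follows UtpA onto the precursor, had 4 of 6 genes lower under CR and 0 higher. UTP13 (YLR222C) gave 4.31, 4.57 and 4.43 in CR, 6.05, 4.60 and 6.12 in RM and 6.31, 6.22 and 7.01 in NR. CR was 4.21-fold lower than NR (limma adjusted p = 0.000966), and RM replicate 2 lay just above the highest CR array. DIP2 (YLR129W), also known as UTP12, gave 4.99, 4.87 and 5.01 in CR, 6.46, 6.22 and 6.75 in RM and 6.44, 6.30 and 6.94 in NR.

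DIP2 was 3.04-fold lower in CR than in NR, and its RM and NR arrays overlapped. UTP21 was 2.26-fold lower and UTP6, a HAT-repeat protein, 2.02-fold lower in CR than in NR. UTP18 (YJL069C), which recruits the exosome helicase, did not separate the groups, with 6.36, 6.26 and 6.29 in CR, 6.43, 6.22 and 6.26 in RM and 6.37, 6.16 and 6.04 in NR. PWP2, a WD-repeat core protein of UtpB, had a log2 fold change of -0.44 with an interval of -0.91 to 0.02.

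The Mpp10 complex, which binds U3 and the precursor and aids their pairing, had 1 of its 3 genes higher under CR than under NR and 0 lower. IMP4 (YNL075W) read 8.46, 8.38 and 8.51 in CR, 8.22, 8.27 and 7.96 in RM and 7.80, 7.25 and 7.14 in NR. The lowest CR value lay above the highest RM value, and the lowest RM value above the highest NR value. CR was 2.08-fold higher than NR (log2 fold change 1.05, interval 0.65 to 1.46, limma adjusted p = 0.000593), just past the 2-fold limit, and the call was lost without NR replicate 2 as well as without NR replicate 3, at 0.98 and 0.92 on the log2 scale, and with quantile normalization repeated, at 0.96.

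MPP10 (YJR002W), which holds IMP3 and IMP4 together, gave 6.08, 6.06 and 5.98 in CR, 6.11, 6.51 and 5.98 in RM and 6.30, 5.90 and 5.92 in NR. Its groups overlapped fully, and the interval for CR over NR was -0.38 to 0.37. IMP3 (YHR148W) gave 6.73, 6.54 and 6.54 in CR, 6.93, 6.80 and 6.70 in RM and 7.57, 6.92 and 6.83 in NR, a log2 fold change of -0.50 for CR over NR.

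Among 3 enzymes and a cyclase-like partner, 3 of the 4 genes fell under CR and 0 rose. EMG1 (YLR186W), which methylates a pseudouridine of 18S RNA, read 4.98, 4.58 and 4.76 in CR, 6.34, 5.38 and 6.23 in RM and 6.66, 6.67 and 7.13 in NR, and was 4.13-fold lower in CR than in NR (limma adjusted p = 9e-05). ECM16 (YMR128W), the DEAH-box helicase also called Dhr1 that releases U3, read 5.46, 5.33 and 5.45 in CR, 6.29, 6.22 and 6.66 in RM and 6.49, 6.99 and 7.44 in NR. Its CR arrays lay below all others, 2.95-fold lower than NR, and the RM and NR arrays overlapped.

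RCL1 (YOL010W), a cyclase-like protein, and BMS1 (YPL217C), the GTPase that binds it, had log2 fold changes of opposite sign. RCL1 was 2.71-fold lower in CR than in NR, with values of 5.85 to 5.89 in CR and 7.18 to 7.42 in NR. BMS1 gave 8.88, 8.89 and 8.86 in CR, 8.40, 8.70 and 8.25 in RM and 8.30, 7.69 and 7.82 in NR. All CR values of BMS1 lay above all NR values, with a log2 fold change of 0.94 (interval 0.54 to 1.34, limma adjusted p = 0.00115), which is 1.92-fold and below the 2-fold limit; without NR replicate 1 it was 1.12 and passed.

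Of the 5 other UTP proteins, 1 fell under CR and 0 rose. UTP14 (YML093W), which activates the helicase Dhr1, read 5.50, 5.43 and 5.28 in CR, 6.24, 5.57 and 6.34 in RM and 6.70, 6.34 and 6.66 in NR, and was 2.24-fold lower in CR than in NR (limma adjusted p = 0.000723). UTP7 (YER082C), a WD-repeat protein, read 7.07, 6.99 and 7.04 in CR, 7.42, 7.35 and 7.70 in RM and 7.66, 7.84 and 7.32 in NR. Its CR arrays lay below its NR arrays by a factor of 1.49.

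UTP22 (YGR090W), a member of the UtpC complex with casein kinase subunits, read 6.86, 6.77 and 6.80 in CR, 6.84, 6.48 and 6.86 in RM and 6.11, 6.37 and 7.07 in NR. The NR arrays of UTP22 spanned the range of both other groups. UTP20, a very large HEAT-repeat protein, and UTP23, which acts in release of the snR30 RNA, had log2 fold changes of 0.19 and -0.39 for CR over NR. Neither reached 1.5-fold.

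Among the 6 remaining assembly factors, 2 fell under CR and 0 rose. NSR1 (YGR159C), related to nucleolin, read 6.003, 5.86 and 5.86 in CR, 8.84, 7.95 and 9.02 in RM and 8.96, 9.19 and 9.62 in NR. The highest CR value, 6.003, lay below the lowest other value, 7.95, and it had the largest fall of the 35 genes, with a log2 fold change of -3.35 ± 0.27 (SE, n = 3 arrays per group; limma adjusted p = 7.12e-06), a factor of 10.2. SOF1 (YLL011W), a WD-repeat protein first found with NOP1, read 5.57, 5.57 and 5.46 in CR, 6.65, 6.25 and 6.60 in RM and 7.08, 6.76 and 6.93 in NR, and was 2.62-fold lower in CR than in NR.

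ENP1 (YBR247C), which stays with the particle into the cytoplasm, read 7.11, 7.06 and 7.10 in CR, 7.25, 7.50 and 7.08 in RM and 7.23, 6.75 and 6.71 in NR, with all 3 groups overlapping. NOC4, the partner of NOP14, was 1.76-fold lower in CR than in NR, RRP5, which acts in making both subunits, 1.64-fold, and KRR1, a KH-domain protein, 1.33-fold. These 3 had limma adjusted p-values of 0.00256, 0.0582 and 0.018 and did not pass the call.

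**Figure D2:**
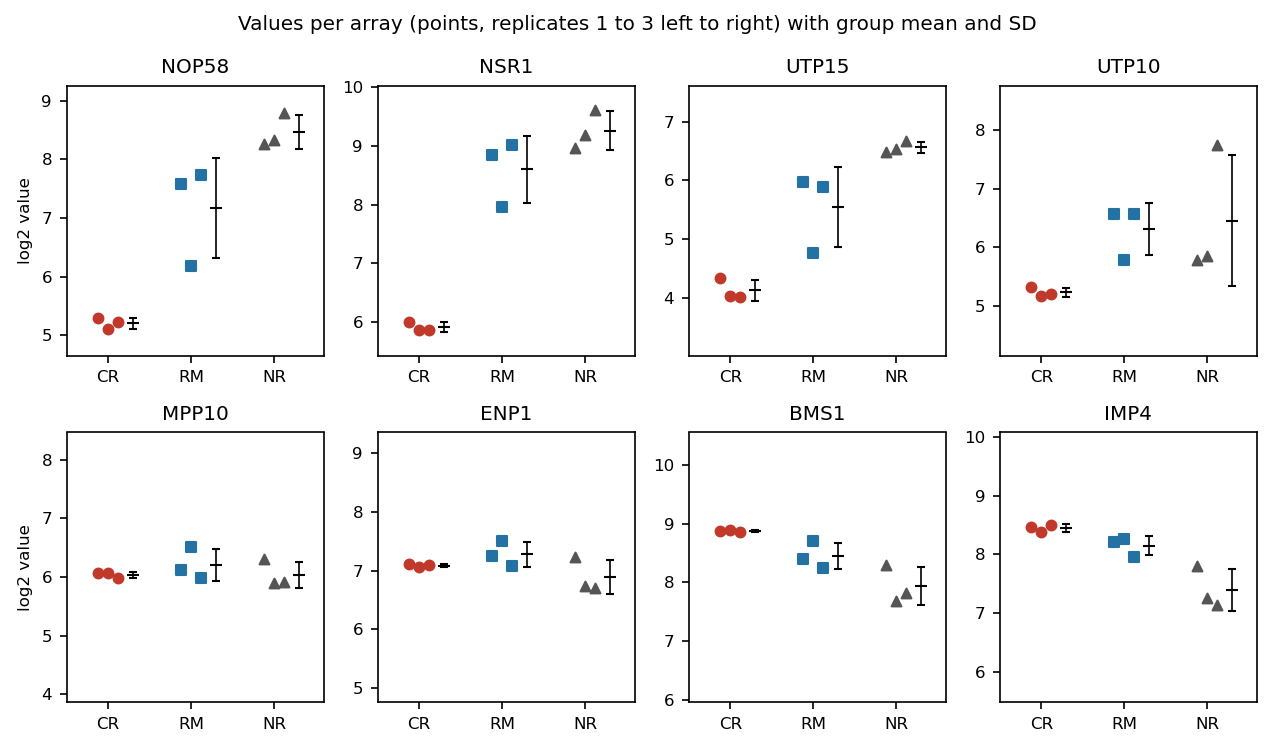
Log2 values on each array for 8 genes, with replicates 1 to 3 from left to right in each group and the group mean with its SD beside them. All panels have axes of the same log2 width. NOP58, NSR1 and UTP15 are far lower in CR, UTP10 has 1 NR array at 7.74 above the rest, MPP10 and ENP1 overlap across groups, and BMS1 and IMP4 are higher in CR than in NR.

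Rapamycin was set against the same NR cultures, so the RM and CR changes share their controls. In RM over NR, 3 of the 35 genes were called lower and 0 higher, where 4.66% of all genes were called lower and 3.99% higher. At an unadjusted p under 0.05 in limma, 12 were lower and 3 higher. The share of all genes at that limit was not counted, so these counts are a description. The median of the 35 was a log2 fold change of -0.25, beside -0.05 for all genes. In 10 genes all RM arrays lay below all NR arrays and in 1, IMP4, all lay above, as did 22.7% and 20.8% of all genes.

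The 3 genes called were NOP56, NOP58 and UTP15, whose values per array are given above. NOP56 was 2.87-fold lower in RM than in NR (log2 fold change -1.52, interval -2.40 to -0.64, limma adjusted p = 0.0166). NOP58 was 2.45-fold lower and UTP15 2.03-fold lower, with limma adjusted p-values of 0.0226 and 0.0231. In each of the 3 genes RM replicate 2 read more than 1 log2 unit below the other RM arrays.

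These 3 calls held under median centring, under another rule for the limma prior and without NR replicate 1, but not under several other choices. Other rules for probe sets could not change the folds, since each of the 35 genes had a single probe set. When the fit held the 6 RM and NR arrays alone, limma called 0 of the 35, with adjusted p-values of 0.051, 0.0631 and 0.0629 for NOP56, NOP58 and UTP15. In that fit 8 were lower and 2 higher at an unadjusted p under 0.05 in limma, again without a share of all genes to set beside them. Without NR replicate 3 or without RM replicate 2, only NOP56 was called; without NR replicate 3 NOP58 had a limma adjusted p of 0.0505 and UTP15 a log2 fold change of -0.97, and without RM replicate 2 NOP58 was at -0.80 and UTP15 at -0.63 on the log2 scale. Without NR replicate 2 UTP15 had a limma adjusted p of 0.0545. Without RM replicate 1, in contrast, 5 genes were called, with NOP1 at -1.11 and EMG1 at -1.02 on the log2 scale added. By the p-values of the authors' deposited table, NOP56 alone passed.

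With no fold limit, 8 of the 35 were lower and 2 higher at a limma adjusted p under 0.05, beside 19.4% and 17.6% of all genes. NOP1 was 1.92-fold lower in RM than in NR (limma adjusted p = 0.0132), EMG1 1.79-fold, RCL1 1.54-fold and SOF1 1.34-fold lower. KRR1 (YCL059C) read 5.99, 5.95 and 5.99 in CR, 5.70, 5.75 and 5.60 in RM and 6.48, 6.14 and 6.56 in NR. Its RM arrays lay below its CR arrays as well as below its NR arrays, and RM was 1.63-fold lower than NR (limma adjusted p = 0.00463). IMP4 was 1.68-fold higher and BMS1 1.43-fold higher in RM than in NR, with limma adjusted p-values of 0.0121 and 0.0479.

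**Figure D3:**
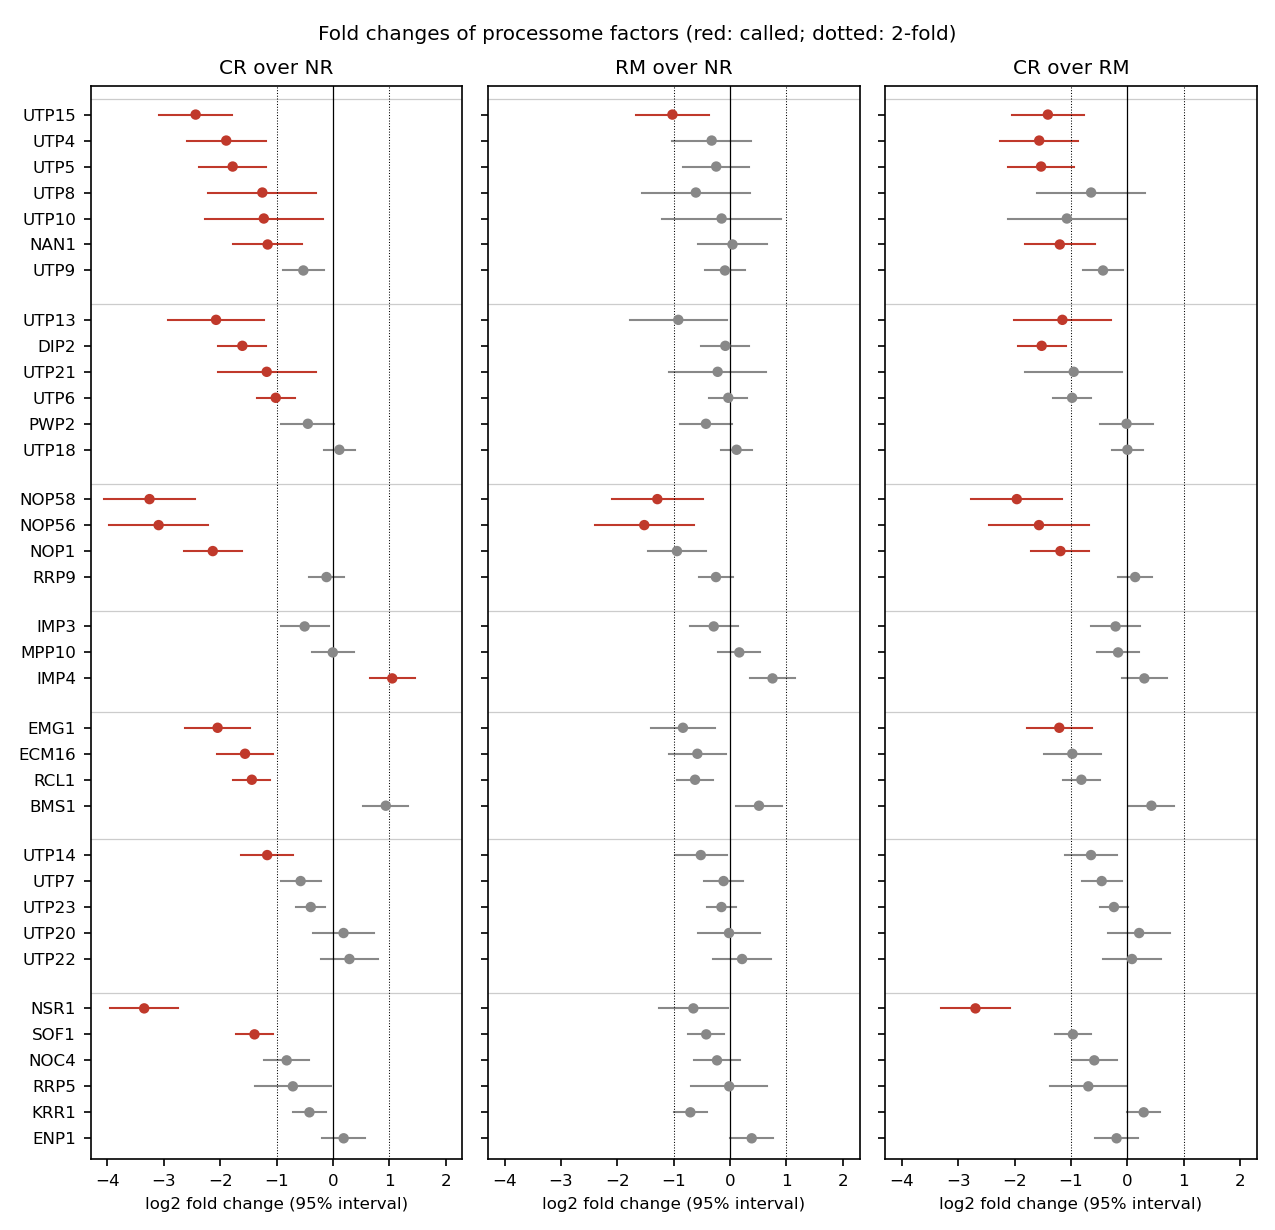
Log2 fold changes (points) with 95% intervals (lines) for the 35 genes in each comparison, in the same order and role groups as the plot of values by array; red marks called genes and dotted lines mark 2-fold. Under CR 19 genes are called below 0 and 1 above, under RM 3 below, and in CR over RM 11 below.

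Set directly against each other, CR was lower than RM for 11 of the 35 genes and higher for 0, where 13.2% of all genes were called lower and 12.7% higher. At an unadjusted p under 0.05 in limma, 22 of the 35 were lower and 1 higher, a limit at which the share of all genes was not counted. The median log2 fold change was -0.69, beside 0.00 for all genes. All CR arrays lay below all RM arrays in 23 genes and above them in 3, IMP4, BMS1 and KRR1, with 37.0% and 38.9% of all genes doing so. With no fold limit, 19 of the 35 were lower and 0 higher at a limma adjusted p under 0.05, beside 26.4% and 29.7% of all genes.

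NSR1 had the largest difference, 6.48-fold lower in CR than in RM (log2 fold change -2.70, interval -3.30 to -2.09, limma adjusted p = 3.71e-05). NOP58 was 3.90-fold, NOP56 2.97-fold, UTP4 2.96-fold, UTP5 2.89-fold and DIP2 2.87-fold lower in CR than in RM. The other 5 were UTP15, EMG1, NAN1, NOP1 and UTP13, between 2.22- and 2.66-fold lower. UTP18 and PWP2 had log2 fold changes of 0.00 and -0.01, with intervals of -0.28 to 0.28 and -0.48 to 0.45.

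Of the 19 genes that fell in CR over NR, 11 were also called lower in CR over RM and 8 were not. All 8 had negative log2 fold changes in CR over RM, from -1.07 for UTP10 to -0.64 for UTP8. Without RM replicate 2, 16 genes were called lower in CR over RM, and the median was -0.96. ECM16, SOF1, UTP21, UTP6 and UTP8 were the genes added, at -1.06, -1.09, -1.29, -1.06 and -1.20 on the log2 scale. UTP10 was added without NR replicate 3 (limma adjusted p = 0.00118). UTP13 was lost without any 1 CR array and without RM replicate 1 or 3, with limma adjusted p-values of 0.0527 to 0.103, and it did not pass by the p-values of the authors' deposited table. Once the deposited p-values were adjusted by Benjamini-Hochberg over all genes, NAN1 and NOP56 did not pass either, at 0.0508 and 0.0767.

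RM replicate 2 was the RM array nearest to CR in most of the 35 genes, 27 in all. Among the 19 genes that fell in CR over NR, RM replicate 2 lay below both other RM arrays in 19 and was the RM array nearest to the CR mean in 19. In the 15 genes not called it was below both in 10 and nearest to CR in 7. Over all genes RM replicate 2 was below both in 42.6% and nearest to CR in 47.6%. In genes picked as low in CR, the lowest RM array tends to be the nearest to CR, so the 2 counts are not separate. The shares over all genes take in both directions of change, so the counts are a description. The median difference of RM replicate 2 from the mean of the other RM arrays was -0.77 over the 19 genes and -0.14 over the 15.

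NR replicate 3 lay above both other NR arrays in 21 of the 35 genes, 15 of them among the 19 that fell in CR over NR, beside 37.6% of all genes, and its median deviation from the NR mean over the 35 was 0.31. Those NR values entered the CR over NR calls, so this count is a description. Across groups, the pooled within-group SD of the 35 genes was 0.10 in CR, 0.43 in RM and 0.43 in NR on the log2 scale, and NR had the largest SD of the 3 groups in 22 genes and RM in 13.

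**Figure D4:**
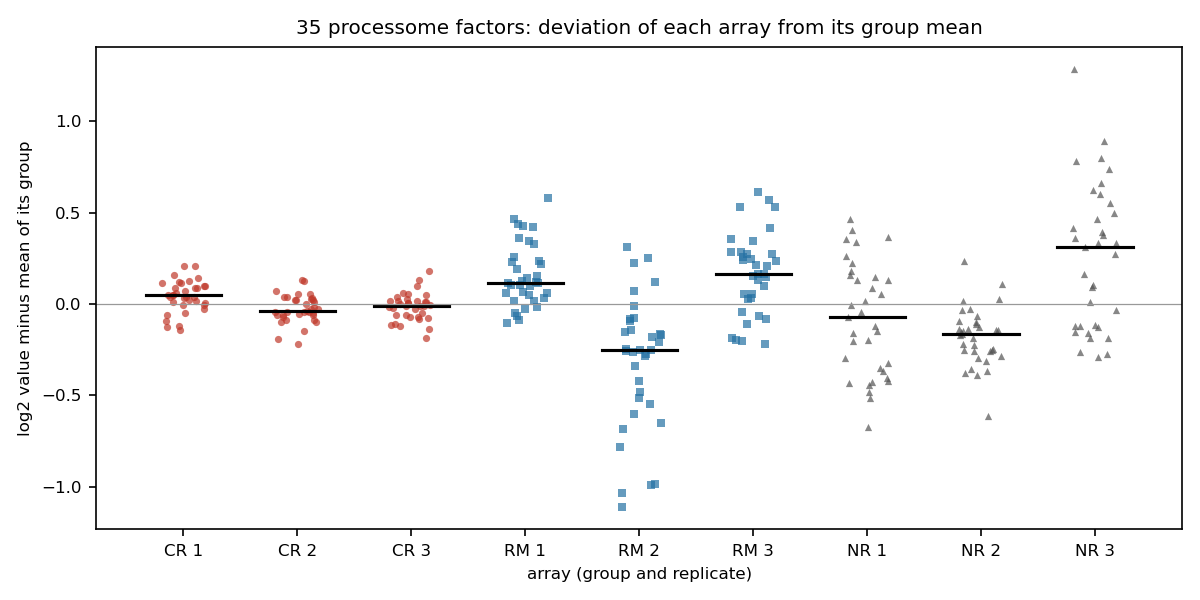
Each point is 1 of the 35 genes, drawn as its log2 value on an array minus the mean of that array's group; bars are medians over the 35 genes. CR arrays stay close to 0, RM replicate 2 has a median of -0.25 and NR replicate 3 a median of 0.31.

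Further genes of the pathway were followed in lists chosen by function. Of 29 other processome factors, 7 were lower and 2 higher in CR than in NR, or 24.1% and 6.90%, beside 19.9% and 17.9% of all genes. Their median log2 fold change was -0.45. The DEAD-box helicase RRP3 (YHR065C) read 3.32, 3.53 and 3.56 in CR and 5.73, 5.93 and 6.54 in NR, 6.05-fold lower in CR, and RRP36 was 5.82-fold lower. The helicase FAL1 was also called lower, with 2.51, 2.32 and 2.61 in CR and 3.59, 4.25 and 5.01 in NR. Its CR values lay near those of the deleted gene LEU2, which reached 2.01, so no fold is given. RRP3 and RRP36, the latter at 3.75, 3.49 and 3.74 in CR, also had low CR values, so their CR over NR folds are less certain. FAF1 was 3.13-fold higher in CR than in RM. The list had 3 genes lower and 1 higher in that comparison, or 10.3% and 3.45%, beside 13.2% and 12.7% of all genes. In RM over NR the list had 1 gene lower and 1 higher, or 3.45% each, beside 4.66% and 3.99% of all genes. RRP3 was 2.10-fold lower and RRT14 2.14-fold higher in RM than in NR. RRP3 read 5.23, 4.46 and 5.31 in RM, with RM replicate 2 the lowest, and its call was not examined without that array. RRT14 had NR values from 5.82 to 7.67 and a limma adjusted p of 0.0492.

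Factors that mature the particle after the processome had 5 of 12 genes lower and 0 higher in CR than in NR, beside 19.9% and 17.9% of all genes. With no fold limit, 7 were lower and 3 higher at a limma adjusted p under 0.05, beside 33.6% and 35.3%. The helicase PRP43, which also acts in splicing, was 6.41-fold lower in CR than in NR, the export factor RRP12 2.43-fold and the kinase RIO1 2.32-fold. RRP12 read 5.31, 5.22 and 5.23 in CR and 6.02, 6.04 and 7.55 in NR, with NR replicate 3 far above the other NR arrays. TSR1, a GTPase-like late factor, was 2.32-fold lower in CR than in RM, where the list had 2 genes lower and 0 higher, beside 13.2% and 12.7% of all genes.

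The H/ACA snoRNP, which makes pseudouridine in ribosomal RNA, had 3 of its 4 genes lower in CR over NR and 2 lower in RM over NR, beside 19.9% and 4.66% of all genes. The remaining gene, NOP10, had a log2 fold change of 0.74 in CR over NR (limma adjusted p = 0.000681), below the 2-fold limit. GAR1 (YHR089C) read 5.24, 5.00 and 5.21 in CR, 6.96, 5.63 and 7.03 in RM and 7.91, 7.68 and 8.34 in NR. RM replicate 2 was again the lowest RM array, and GAR1 was 7.11-fold lower in CR than in NR and 2.71-fold lower in RM than in NR. CBF5, the pseudouridine synthase, was 4.85-fold lower in CR and 2.23-fold lower in RM than in NR, and NHP2 2.21-fold lower in CR than in NR. CBF5 read 7.87, 6.93 and 7.85 in RM, so RM replicate 2 was the lowest there as well. The RM over NR calls of GAR1 and CBF5 were not examined without that array, so the count of 2 is less certain.

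For RNA polymerase I, which transcribes the precursor, and its initiation factor RRN3, 6 of 8 genes were lower and 1 higher in CR than in NR, beside 19.9% and 17.9% of all genes. RPA49 was 4.73-fold and RPA12 4.54-fold lower in CR than in NR. RPA43 was also called lower, with 3.22, 2.84 and 3.22 in CR and 5.05, 5.27 and 5.32 in NR. Its CR values were low, toward those of the deleted gene LEU2, which reached 2.01, so no fold is given. RRN3 (YKL125W) went the other way, with 7.62, 7.59 and 7.71 in CR, 5.98, 5.64 and 6.02 in RM and 6.63, 6.75 and 6.18 in NR. RRN3 had a log2 fold change of 1.12 in CR over NR and was 3.39-fold higher in CR than in RM. In CR over RM the list had 3 genes lower and 1 higher, or 37.5% and 12.5%, beside 13.2% and 12.7% of all genes. No gene of this list passed the call in RM over NR, where limma gave 5 lower at an adjusted p under 0.05 with no fold limit, beside 19.4% of all genes.

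Among 60S assembly factors, which build the large subunit, 22 of 51 genes were lower and 1 higher in CR than in NR. The share lower was 43.1%, beside 54.3% for the 35 processome genes and 19.9% for all genes. The median was -0.91, beside -1.16. The helicase DRS1 was 5.61-fold and RLP24 4.08-fold lower in CR than in NR. RRP1 was called lower too, with 2.26, 2.87 and 2.50 in CR and 4.81, 5.01 and 5.68 in NR; its CR values also lay near those of LEU2, and no fold is given. In RM over NR 1 gene, the GTPase NUG1, was lower, or 1.96% beside 4.66% of all genes. RM replicate 2 was the lowest RM array for NUG1, and its call was not examined without that array. In CR over RM 16 were lower and 1 higher, or 31.4% and 1.96% beside 13.2% and 12.7%. The difference between the 2 lists was not tested.

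Of 5 regulators of ribosome assembly genes, 0 were lower and 1 higher in CR than in NR, beside 19.9% and 17.9% of all genes. In CR over RM 1 was lower and 1 higher, or 20% each, beside 13.2% and 12.7%. The repressor TOD6 read 7.29, 7.34 and 7.37 in CR, 8.57, 8.81 and 8.29 in RM and 8.04, 7.62 and 7.24 in NR. It was 2.34-fold lower in CR than in RM, and its CR and NR arrays overlapped. For the repressors STB3 and DOT6 and the activator SFP1, no comparison passed the call.

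**Figure D5:**
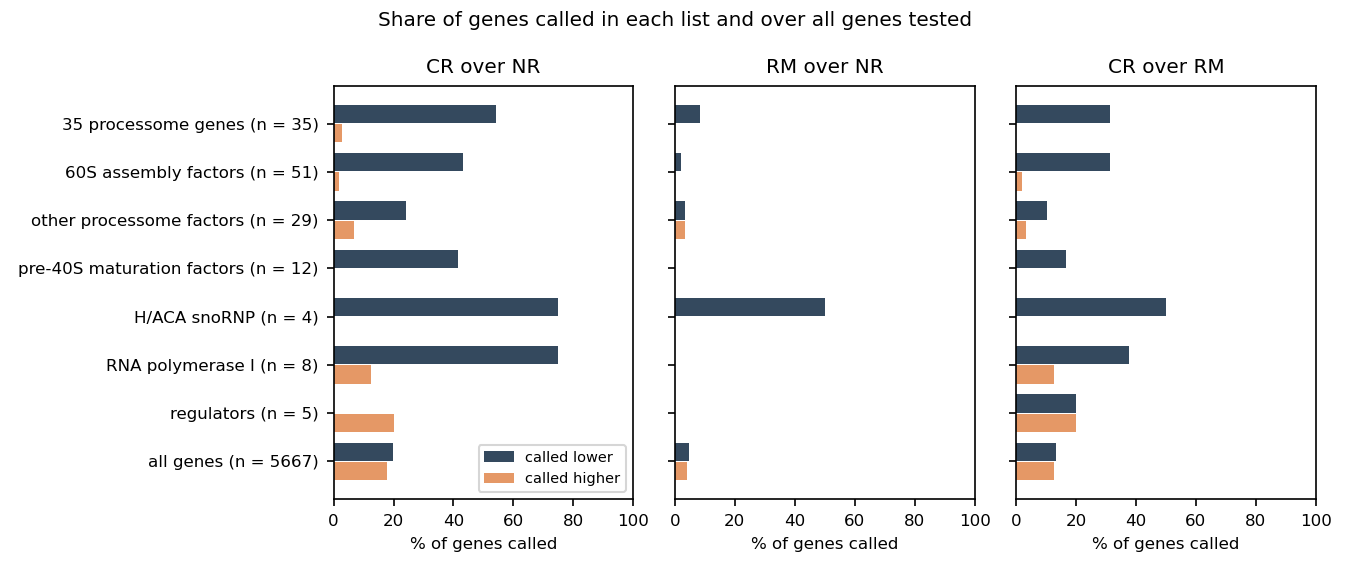
Percentage of genes called lower (dark) and higher (light) for the 35 processome genes, 6 other lists and all 5667 genes, in each comparison. In CR over NR the 35 genes are at 54.3% lower, other processome factors at 24.1% and all genes at 19.9%.

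Neighbouring genes on the chromosome gave few pairs. In the gene order of RefSeq assembly R64, 3 of the 35 genes stood next to another gene of these lists. UTP13 lies beside the 60S factor RSA3 in the same orientation, with log2 fold changes of -2.07 for UTP13 and 1.36 for RSA3 in CR over NR. UTP9 and RIX1 lie in tandem, at -0.52 and -1.20. NOC4 and RRP15 face each other, at -0.82 and -1.05.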

How the data were processed

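RNA of 9 cultures was measured on Affymetrix Yeast 2.0 arrays. The deposited values per array are log2 signals; the submitters' processing notes name RMA and the Transcriptome Analysis Console 2.0 without their roles. The authors' deposited tables also give, per comparison, a signed linear fold (read here as a score, since it has negative values) and a p-value per probe set. The deposited folds, converted to log2, equalled differences of group means of the log2 values within 1e-08.

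Of 5716 probe sets, the first listed for each gene was kept, giving 5667 genes, of which 5646 were named through RefSeq assembly R64. One limma fit (lmFit and eBayes, limma 3.58.1, R 4.3.3) held all 9 arrays, with contrasts of CR with NR, of RM with NR and of CR with RM. All adjusted p-values are Benjamini-Hochberg over 5667 genes. A call needed an adjusted p under 0.05 and 2-fold. The procedure was tested on simulated data in which each gene had the same spread in all groups. The real groups differed in spread, so that test cannot show how the shared estimate of spread behaves here. The labels call the replicates biological; 3 arrays per group limit the precision. Alternatives were other fold limits, normalizations, probe set rules and fits, the deposited p-values, and leaving out arrays; group weights and leaving out NR replicate 3 and RM replicate 2 together were added after seeing the data.

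The 35 genes and all lists were chosen with earlier results of these data known. The naming rule gave values per array for the 2 lowest and 1 highest log2 fold changes of each role group in CR over NR and for genes called in RM over NR, and up to 3 called genes per other list and comparison. Values per array of UTP10, NOP1, RCL1 and KRR1 were chosen after they were seen. Promoter and protein sequences were not used here. One result on a regulator is not reported here.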

Additional observations from a re-analysis of the deposited data

How the results depend on the processing

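The fold limit set most counts. Genes called among all 5667 were 2139 for CR against NR, 490 for RM against NR and 1469 for CR against RM. With a 1.5-fold limit they were 3284, 1464 and 2613, with a 3-fold limit 991, 89 and 520, and with no fold limit 3905, 2099 and 3180. Of the 35 genes, 20 were called in CR over NR, and 10 at 3-fold. In RM over NR 3 were called, and 8 at 1.5-fold, 0 at 3-fold and 10 with no limit. In CR over RM 11 were called, and 17 at 1.5-fold, 2 at 3-fold and 19 with no limit. For RM over NR, 0 of the 35 were called with the 6 arrays of the pair, 0 with group weights, 1 by the p-values of the authors' deposited table and 0 once those were adjusted, when 277 of all genes were called. For CR over RM, 7 were called without the dimmest genes, a filter that drops 7 of the 35. Leaving out arrays gave 15 to 20 of the 35 for CR over NR, 0 to 5 for RM over NR and 10 to 17 for CR over RM, where 0 and 17 came from leaving out NR replicate 3 and RM replicate 2 together. Of all genes, 367 to 783 were then called in RM over NR, the highest count without NR replicate 1. The cause of these moves was not tested. Over the 35 genes, the 3 comparisons and all alternatives other than the fold limit, 2044 values kept their sign and their side of the threshold, 65 lost a call, 29 gained one, and 46 changed sign with no call before or after. The 2044 include settings that could not change a fold of the 35 genes, so that only calls could move. These were the other probe set rules, the filter on dim genes, the 6 arrays of the pair and the deposited p-values. The other rule for the limma prior, group weights and the replicate block left the folds unchanged too. Leaving out an array of the group not compared could not change a fold either. With quantile normalization repeated, 14 of the 35 were called for CR against NR, 2 for RM against NR and 10 for CR against RM. The groups share replicate numbers, but same-numbered arrays did not deviate together in every pair (correlations from -0.198 to 0.348), and 2 of 9 arrays correlated best with both arrays of their own number. With the replicate block, 20 of the 35 and 2144 of all genes were called for CR against NR, 3 and 498 for RM against NR, and 12 and 1475 for CR against RM. The promoter motif search was not run, and 3 arrays per group limit the precision.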
